A study of Mus musculus with 10 samples.

Results

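Loss of Snf5 was compared with wild type in primary mouse embryonic fibroblasts (MEFs), connective tissue cells grown from embryos. The comparison uses 6 of the 10 arrays of the series, namely the 3 arrays labelled WT and the 3 labelled Snf5-/-, and covers 8403 genes. The other 4 arrays are of Brg1-/- cells, which lack another subunit of the same complex, and enter only the estimate of the spread between arrays. Genes in 15 pathway lists whose behaviour in these data was already known, 650 genes in all, were passed over when single genes were chosen, so the text turns to other single genes, to families and to members that changed against their family.

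All groups were primary cells from E13.5 embryos (E, embryonic day), on a background that mixed the C57BL/6 and 129 strains. Every group, WT included, had received Cre recombinase from a retrovirus and had then been selected with puromycin at 2.5 ug/ml, so virus and selection do not separate the groups. RNA was taken with Trizol and hybridized as biotin-labelled cRNA to an Affymetrix expression array. Whether replicates were separate embryos or separate cultures is not stated in the labels. The p-values therefore reflect only the variation among these arrays, and part or all of it may be technical. The labels also do not give the time between infection and harvest.

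Snf5, encoded by Smarcb1, is a core subunit of SWI/SNF, a complex that uses ATP to slide and evict nucleosomes at promoters and enhancers. SWI/SNF is known to be recruited by sequence-specific factors, and its loss can lower transcription at sites it keeps open and raise it at sites it helps to keep silent. Fibroblasts are known for the matrix they secrete, the adhesion receptors through which they grip it and an actin cytoskeleton that pulls on it.

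Smarcb1, which is removed by Cre in the mutant, measured 1119, 844 and 891 units in the WT arrays and 279.5, 279 and 331 in the Snf5-/- arrays. Every Snf5-/- array lay below every WT array, and the transcript fell by 1.37 ± 0.11 (standard error, SE, on the log2 scale). The fitted adjusted p was 1.97e-05 (limma with Benjamini-Hochberg adjustment over all genes tested, as for every adjusted p given for a gene). The values are MAS5 intensity on a linear scale, and a probe set reads only the stretch of transcript it was designed for.

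The cells carried fibroblast RNA: all 12 fibroblast markers lay above background in all 6 arrays, and their summed intensity overlapped between WT (121928 to 130876) and Snf5-/- (119753 to 138977). The sum hides opposite changes, since 2 of the 12 rose and 1, S100a4, fell. S100a4 measured 17442, 20918.5 and 19579 units in the WT arrays and 9815, 3158 and 8222.5 in the Snf5-/- arrays. Of 8 epithelial markers 4 lay above background in all 6 arrays, among them Krt19 at 338 to 784 units, and Epcam lay at or below it in all 6. Of the 5 tested, 1 fell and 0 rose. Dsp measured 489, 226 and 243 units in the WT arrays and 12.4, 31.4 and 49.6 in the Snf5-/- arrays. Cldn4 measured 278, 152 and 170.5 units in the WT arrays and 94.8, 80.1 and 74.4 in the Snf5-/- arrays. Of 8 endothelial markers 2 lay above background in all 6 arrays, and Tie1 lay at or below it in all 6. Markers of macrophages and leukocytes summed to 3772 to 6606 in WT and 2886 to 10763 in Snf5-/-, where replicate 2 was the highest. Of these 13 markers 11 were tested, and 2 of those tested rose. Skeletal muscle markers summed to 5681 to 9747 in WT and 871 to 1784 in Snf5-/-, a sum made up mostly of Acta1 (8808, 5455 and 4794 units in the WT arrays and 778, 1135 and 439.8 in the Snf5-/- arrays), the only 1 of the 3 tested that fell. Neural markers summed to 2942 to 4208 in WT and 1999 to 2609 in Snf5-/-, and mesothelial markers to 627 to 797 in WT and 95.8 to 162 in Snf5-/-. In bulk RNA, fewer cells of a type and less RNA per cell cannot be told apart. The part of these other cells in the results was not tested. Array medians ranged from 164 to 234 and were lower in every Snf5-/- array than in every WT array, a log2 difference of -0.26 (exact permutation p = 0.1, two-sided, the smallest that 3 arrays against 3 allow). The Gapdh ratio of 3-prime to 5-prime signal ranged from 0.742 to 0.946 (exact permutation p = 0.2).

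Because the arrays differ in overall brightness, each gene was fitted on 2 scales, the deposited log2 values and values after quantile normalization, which gives all arrays the same distribution. The median log2 change of all genes was -0.27 as deposited and 0.02 with quantile normalization. A total of 892 genes passed an adjusted p of 0.05 on both scales (10.6% of those tested), 265 of them higher in Snf5-/- (3.15%) and 627 lower (7.46%). The deposited scale by itself gave 1619 changed genes (19.3%), 265 higher and 1354 lower (16.1%). The quantile-normalized scale by itself gave 1520 (18.1%), 892 higher and 628 lower (7.47%). The 3 arrays of each genotype were fully separate on both scales for 418 genes that were higher (4.97%) and 1333 that were lower (15.9%). Only genes past the threshold on both scales are written as having risen or fallen, unless the text says otherwise, and log2 changes are those of the quantile-normalized scale. Outside the 15 lists, 171 genes rose and 584 fell.

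The largest rises outside those lists were those of a sulfur amino acid enzyme, complement proteases, a glucose carrier, a retinoic acid binding protein and several secreted or matrix proteins. Cdo1, cysteine dioxygenase, which starts the breakdown of cysteine, measured 189, 151 and 153 units in the WT arrays and 2121, 1284 and 2496 in the Snf5-/- arrays. The groups were far apart, and the transcript rose by 3.78 ± 0.21 (adjusted p = 3.68e-06). Crabp1, which binds retinoic acid in the cytoplasm, measured 1972, 3230 and 2672 units in the WT arrays and 9573, 8660.4 and 13369 in the Snf5-/- arrays. The lowest Snf5-/- array was above the highest WT array, and Crabp1 rose by 2.35 ± 0.28 (adjusted p = 0.000171). The glucose transporter Slc2a3 measured 558, 337 and 356 units in the WT arrays and 2107, 1123 and 2059.5 in the Snf5-/- arrays and rose by 2.32 ± 0.25, again with no overlap. Of 16 carriers of sugars, nucleosides and monocarboxylates measured, it was the only member called on both scales.

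C1s1 and C1ra encode the proteases that open the classical complement pathway and lie close together on chromosome 6. C1s1 measured 131, 159 and 124 units in the WT arrays and 569, 836 and 3590 in the Snf5-/- arrays. C1ra measured 97.7, 88.9 and 99.9 units in the WT arrays and 426, 428 and 1346 in the Snf5-/- arrays. Both were low and even in WT and highest in Snf5-/- replicate 3, by several times over the other mutant arrays, and rose by 3.37 ± 0.52 and 2.97 ± 0.33. Each has a near-identical copy in the mouse genome that the probe sets may also detect, so the copy cannot be assigned. The complement gene C1qa, a macrophage marker, measured 27.7, 10.0 and 12.9 units in the WT arrays and 26.6, 709 and 17.1 in the Snf5-/- arrays, so it stood out in Snf5-/- replicate 2, not in replicate 3. Its change did not pass, while the companion chains C1qb and C1qc rose, again with replicate 2 highest.

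Among secreted and matrix genes, Medag, a gene linked to fat cell formation, measured 163, 224 and 202 units in the WT arrays and 969.9, 744 and 1420.2 in the Snf5-/- arrays and rose by 2.61 ± 0.26. Adamts4, a protease that cleaves the proteoglycan aggrecan, measured 149, 51 and 124 units in the WT arrays and 312, 619 and 395 in the Snf5-/- arrays and rose by 2.38 ± 0.42. Srpx, a sushi-repeat protein, measured 90.8, 74.7 and 61.2 units in the WT arrays and 285, 269 and 457 in the Snf5-/- arrays and rose by 2.39 ± 0.26. For these 3 genes no Snf5-/- array reached down to the WT range. Nts, the precursor of the peptide neurotensin, measured 48.9, 46.9 and 59.5 units in the WT arrays and 250.3, 102 and 811 in the Snf5-/- arrays, which is an even low level in WT and a wide spread in the mutant, and rose by 2.65 ± 0.63 (adjusted p = 0.0128). Egr2, a zinc finger factor induced early by growth signals, measured 56.5, 49.5 and 43.1 units in the WT arrays and 226, 185 and 345 in the Snf5-/- arrays and rose by 2.55 ± 0.26, with 1 WT array at or below background. Abi3bp, an extracellular matrix protein, had 1 WT array at or below background too and rose by 2.40 ± 0.38.

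Some large rises started from WT values near background, where a log2 change is poorly fixed. Kcnk1, a potassium leak channel, measured 56.4, 6.40 and 2.00 units in the WT arrays and 115, 165 and 67.8 in the Snf5-/- arrays, with 2 WT arrays at or below background, and its fitted change of 3.84 ± 1.02 has the widest error of the largest rises. Sgo1, shugoshin, which protects the cohesion of chromosomes at the centromere, also had 2 WT arrays there, at 90.7, 12.6 and 46.3 (WT) against 307, 115 and 199 units (Snf5-/-). Fndc4, a secreted protein with a fibronectin type III domain, had 1, at 80.4, 13.3 and 61.9 (WT) against 276, 230.3 and 402 units (Snf5-/-). Itpkb, an inositol phosphate kinase, had 1 as well, at 194, 54.2 and 30.9 (WT) against 254, 234 and 441 units (Snf5-/-). Separate groups were a condition for being listed here. Kcnk1 alone among the 15 largest rises lost its call when an array was left out, with an adjusted p of up to 0.0671 without WT replicate 2 or 3 or Snf5-/- replicate 1 or 2. With values raised to background, its change was 1.53 (adjusted p = 0.0668).

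**Figure D1:**
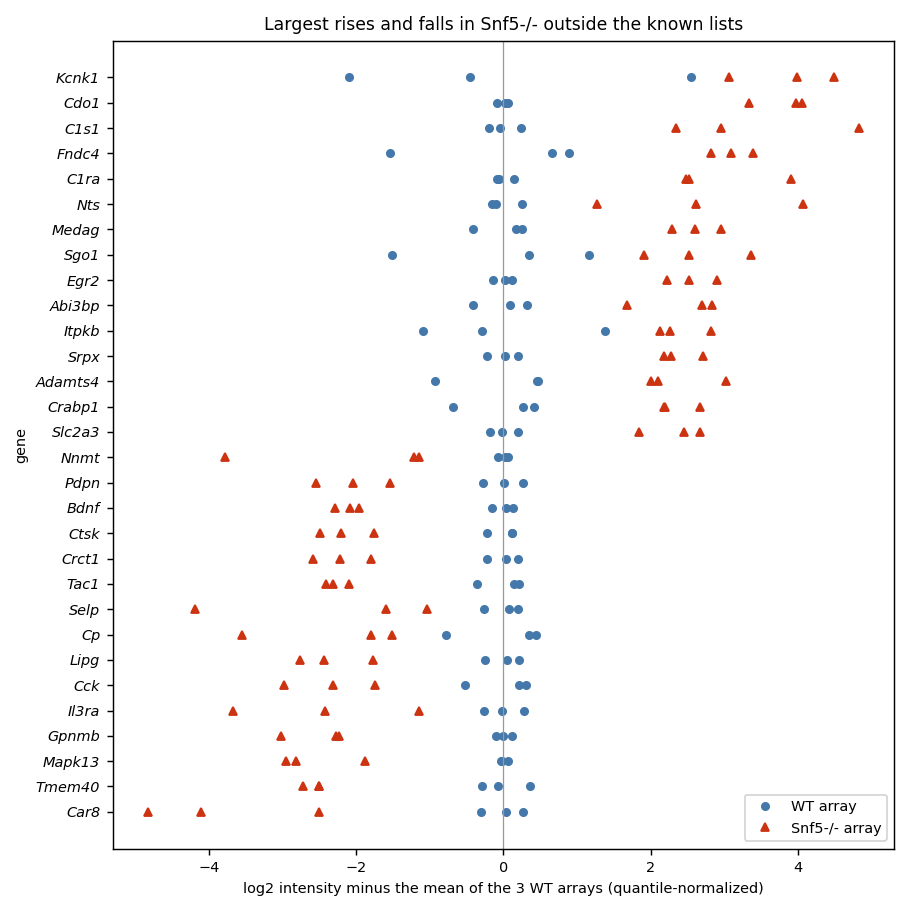
Log2 intensity of each array minus the mean of the 3 WT arrays (quantile-normalized), for the 15 largest rises and the 15 largest falls; circles are WT arrays and triangles Snf5-/- arrays. Genes were chosen to have separate groups; the arrays of a group lie close together for Cdo1, Gpnmb and Bdnf and far apart for Kcnk1 and Car8.

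Chosen in the same way, outside the 15 lists and with separate groups, the largest falls held neuropeptides and growth factors, enzymes of lysosomes and lipids, and cell surface proteins. Gpnmb, a membrane glycoprotein of lysosomes and melanosomes, measured 4943, 3984 and 3978 units in the WT arrays and 387, 635 and 784 in the Snf5-/- arrays. The WT arrays lay close together and far above all mutant arrays, and Gpnmb fell by 2.51 ± 0.20 (adjusted p = 1.97e-05). Ctsk, cathepsin K, a lysosomal protease that degrades collagen, measured 1743, 1652 and 1536 units in the WT arrays and 219, 269.5 and 431 in the Snf5-/- arrays and fell by 2.15 ± 0.23. Lipg, a lipase of the cell surface, measured 2422, 1292 and 1475 units in the WT arrays and 230.2, 363 and 216 in the Snf5-/- arrays and fell by 2.33 ± 0.24. Both showed the same clean gap between the genotypes.

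Among the 15 largest falls were 3 precursors of peptide or protein signals, while Nts, another such precursor, rose. Bdnf, the neurotrophin that signals through the receptor TrkB, measured 2209.6, 1539 and 1261 units in the WT arrays and 289.8, 314 and 294 in the Snf5-/- arrays and fell by 2.11 ± 0.22 (adjusted p = 7.28e-05). Cck, the precursor of cholecystokinin, measured 788, 1114 and 967 units in the WT arrays and 147, 95.2 and 257 in the Snf5-/- arrays and fell by 2.35 ± 0.32. Tac1, the precursor of substance P, measured 298, 367 and 331 units in the WT arrays and 54.7, 53.2 and 69.3 in the Snf5-/- arrays and fell by 2.27 ± 0.68, with a larger error (adjusted p = 0.0374). These signals are best known from neurons, and of the 5 neural markers tested Map2 fell while the others did not pass on both scales. The sum of the neural markers was lower in every mutant array, as given above, and its part in these falls was not tested. The call on Tac1 was lost when any 1 of the 6 arrays was left out (adjusted p up to 0.119).

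Pdpn, podoplanin, a sialoglycoprotein of the surface of fibroblasts, mesothelium and lymphatic vessels, measured 7473, 8256 and 6459 units in the WT arrays and 1329.8, 898 and 2143 in the Snf5-/- arrays and fell by 2.05 ± 0.25. The mesothelial marker Msln measured 523, 397 and 426 units in the WT arrays and 65.3, 47.6 and 50.4 in the Snf5-/- arrays, and it fell, as did Upk3b, the other mesothelial marker tested. Mapk13, the delta isoform of the p38 stress kinases, measured 1185, 894 and 889 units in the WT arrays and 108, 99.2 and 241 in the Snf5-/- arrays and fell by 2.55 ± 0.29. Crct1, a gene of the cluster that serves the skin barrier, measured 1701, 951 and 1068 units in the WT arrays and 259.9, 196 and 174 in the Snf5-/- arrays and fell by 2.20 ± 0.29. In all 3 genes the highest mutant array was well below the lowest WT array.

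Several falls ended at the floor of the array. Tmem40, a membrane protein, measured 288, 155 and 172 units in the WT arrays and 28.8, 25.5 and 30.3 in the Snf5-/- arrays, with all 3 mutant arrays at or below background, and was at least 3.71-fold lower (the WT mean against background; fitted adjusted p = 0.00308). Car8, a relative of the carbonic anhydrases that lacks their activity, measured 437, 278 and 387 units in the WT arrays and 11, 17.8 and 54.9 in the Snf5-/- arrays, with 2 mutant arrays there, and fell by 3.81 ± 0.94. Il3ra, a subunit of the interleukin 3 receptor, had 2 there as well, at 176, 223 and 174 (WT) against 12.8, 30.4 and 75.9 units (Snf5-/-). The copper-carrying ferroxidase Cp, the adhesion receptor Selp and the nicotinamide methyltransferase Nnmt each had 1 and fell by 2.29 ± 0.58, 2.27 ± 0.64 and 2.05 ± 0.54. When dim probe sets were kept, another probe set stood for Car8, with a change of -1.15 (adjusted p = 0.302). Besides Tac1, calls among the 15 largest falls were lost, by their adjusted p, for Car8 without WT replicate 1, 2 or 3 (up to 0.0904), Il3ra without WT replicate 2 or 3 or Snf5-/- replicate 1 (up to 0.0686), Cp without WT replicate 2 or 3 or Snf5-/- replicate 1 (up to 0.0703), Selp without WT replicate 1, 2 or 3 (up to 0.0867) and Nnmt without WT replicate 1, 2 or 3 (up to 0.0639).

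The promoters of changed genes were searched for TGACTCA, the motif of AP-1 factors, which are known partners of SWI/SNF at fibroblast enhancers. It was counted on both strands (TGACTCA or TGAGTCA) in 300-base windows from 250 bases before to 50 bases after each start site, as RefSeq gives them on mouse build GRCm38.p6. At least 1 window was given for 6844 of the genes tested, and 333 of these held the motif (4.87%). It was in 38 of 484 genes that fell (7.85%) and in 10 of 210 that rose (4.76%). The stretches around the motif are printed for Cav2, Tmem40 and Zyx, which fell, and for Nts and Fas, which rose, to show that promoters with the same letters stood on both sides. The Cav2 stretch is chr6:17281053-17281139 (plus strand), that of Tmem40 chr6:115762575-115762661 (minus strand), that of Zyx chr6:42349667-42349753 (plus strand), that of Nts chr10:102490579-102490665 (minus strand) and that of Fas chr19:34290409-34290494 (plus strand). Each is written 5′ to 3′ along the gene, in lower case with the motif in capitals, which begins at -92, -155, -121, -207 and -211 from the start site in that order.
Cav2: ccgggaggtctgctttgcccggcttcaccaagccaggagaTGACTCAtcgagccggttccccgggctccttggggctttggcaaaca
Tmem40: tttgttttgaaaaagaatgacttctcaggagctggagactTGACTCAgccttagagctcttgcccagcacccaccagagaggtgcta
Zyx: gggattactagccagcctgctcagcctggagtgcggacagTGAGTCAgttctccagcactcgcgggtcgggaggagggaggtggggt
Nts: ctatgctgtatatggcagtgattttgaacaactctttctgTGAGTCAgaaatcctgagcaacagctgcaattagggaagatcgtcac
Fas: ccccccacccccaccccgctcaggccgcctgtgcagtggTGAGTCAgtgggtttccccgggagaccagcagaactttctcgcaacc
A match describes these letters only and is not evidence that a factor binds there, and distal enhancers lie outside such windows.

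Families were read from gene symbols, 103 in all, and 101 of them had at least 5 genes tested. Their calls are set beside the 3.15% of all genes that rose and the 7.46% that fell. Calls in both directions occurred in 36 families, at least 3 called members in 43, and no called member in 17. Among families with at least 3 called members, the highest shares of falls were in the proteins of caveolae, with 6 of 11, and the subunits of the vacuolar proton pump, with 8 of 16. Integrins, cadherins, syndecans with glypicans, and tetraspanins followed.

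**Figure D2:**
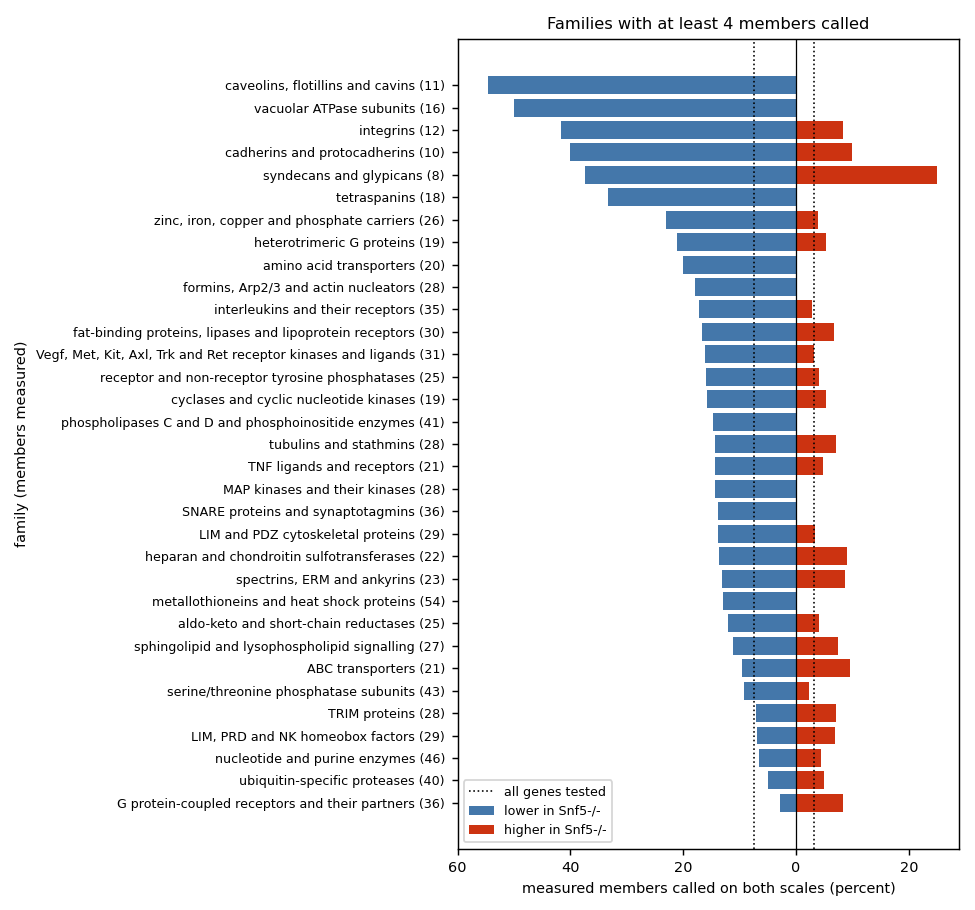
Share of measured members that fell (left, blue) or rose (right, red) on both scales, in percent, for the families of at least 5 measured genes with at least 4 members called; dotted lines mark the shares over all genes tested, 7.46% lower and 3.15% higher. Proteins of caveolae and the vacuolar ATPase have the longest bars to the left, and syndecans and glypicans the longest to the right.

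Caveolae are flask-shaped pits of the plasma membrane, built from caveolins and held in shape by cavins and by EHD proteins at their neck. Cav1, the caveolin that forms the coat, measured 14827, 9979 and 9536 units in the WT arrays and 8268, 6234 and 5168 in the Snf5-/- arrays and fell by 0.52 ± 0.16. Its partner Cav2 measured 2627, 1499 and 1711 units in the WT arrays and 599, 558 and 451 in the Snf5-/- arrays and fell by 1.49 ± 0.19 (adjusted p = 0.000281). The groups did not overlap in either gene. Ehd2, the ATPase of the caveolar neck, measured 1209.5, 1354 and 1514 units in the WT arrays and 337, 389.8 and 750 in the Snf5-/- arrays and fell by 1.23 ± 0.28. Its relative Ehd4 fell by 0.87 ± 0.12. The cavin Cavin2 fell by 0.51 ± 0.16, and Flot2, a flotillin that marks other membrane domains, by 0.49 ± 0.09. No member rose on both scales. Cavin3 measured 875, 516 and 553 units in the WT arrays and 1088, 712 and 1267 in the Snf5-/- arrays, a log2 change of 0.94 ± 0.17 that passed after quantile normalization (adjusted p = 0.00283) and not on the deposited scale (0.0598). Cavin1, the cavin that caveolae require, had a log2 change of -0.15 ± 0.12 (adjusted p = 0.429). The median over the 11 genes was -0.49, or -0.80 on the deposited scale, against 0.02 and -0.27 over all genes. The adjusted p rose above 0.05 for Cav1 when any 1 array but Snf5-/- replicate 1 was left out (up to 0.145) and Cavin2 when any 1 array but Snf5-/- replicate 1 was left out (up to 0.132).

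The vacuolar ATPase pumps protons into lysosomes and endosomes, with a soluble V1 part that splits ATP and a V0 part in the membrane that carries the protons. Falls in 6 V1 subunits were of 0.40 to 0.58. Atp6v1g1, a stalk subunit, measured 9846, 7349.5 and 6732 units in the WT arrays and 3902, 3308 and 5068 in the Snf5-/- arrays and fell by 0.58 ± 0.10 (adjusted p = 0.00269). Atp6v1e1, another stalk subunit, measured 4809, 3682 and 3472 units in the WT arrays and 2108, 1854 and 2795 in the Snf5-/- arrays and fell by 0.47 ± 0.11. Atp6v1b2, a subunit of the ATP-splitting ring, measured 2457, 1974 and 1679.6 units in the WT arrays and 1078, 1141 and 1421 in the Snf5-/- arrays and fell by 0.42 ± 0.10. No mutant array reached the WT range in these genes. Atp6v1c1, Atp6v1f and Atp6v1h fell by 0.43 ± 0.10, 0.40 ± 0.09 and 0.40 ± 0.10. The accessory subunits Atp6ap1 and Atp6ap2 were the other falls. The fall of Atp6v1e1 rested on 1 probe set, since the mean of all its probe sets changed by -0.01 (adjusted p = 0.985). The catalytic subunit Atp6v1a had a log2 change of -0.05 ± 0.11 and did not pass (adjusted p = 0.801). No V0 subunit passed on both scales. The family median was -0.40 (-0.71 on the deposited scale), and 15 of 16 members lay below 0. The threshold was missed, by adjusted p, by Atp6v1b2 without WT replicate 2 (up to 0.0541), Atp6v1c1 without WT replicate 1 (up to 0.0536) and Atp6v1h without WT replicate 1 or 3 or Snf5-/- replicate 1 (up to 0.0648).

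Promoters of vacuolar ATPase genes are known for CACGTG, the core of the motif TCACGTGA through which lysosome regulators of the MiT/TFE family act. CACGTG reads the same on both strands and lies within TCACGTGA, so a window with the longer motif holds both. It was found for 845 of the 6844 genes (12.3%), and TCACGTGA in 157 (2.29%). Of 11 vacuolar ATPase genes with a window, 4 held CACGTG and 3 held TCACGTGA, and none of the 4 members that fell and had a window held either. The stretches of 2 members with the motif, neither of which passed the test, are printed to show its letters and place: Atp6v1a at chr16:44139345-44139430 (minus strand) and Atp6v0b, a proteolipid subunit, at chr4:117887330-117887405 (minus strand), both 5′ to 3′ along the gene on GRCm38.p6 from RefSeq, with CACGTG in capitals.
Atp6v1a: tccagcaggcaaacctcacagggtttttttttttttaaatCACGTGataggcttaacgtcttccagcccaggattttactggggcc
Atp6v0b: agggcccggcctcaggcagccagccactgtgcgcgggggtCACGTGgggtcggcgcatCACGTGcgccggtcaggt
Atp6v0b measured 5027, 2726 and 2340.3 units in the WT arrays and 1908, 1883 and 2831 in the Snf5-/- arrays, with overlapping groups and a log2 change of -0.20 ± 0.15 (adjusted p = 0.414).

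Among 13 cathepsins and cystatins, which are lysosomal proteases and their inhibitors, Ctsk, Ctse and Ctsl fell and none rose. Ctse, an aspartic protease, measured 1098, 1235 and 1063 units in the WT arrays and 291, 336 and 689.5 in the Snf5-/- arrays and fell by 1.16 ± 0.27. Ctsl, a cysteine protease, measured 13500.4, 11686 and 11371 units in the WT arrays and 5871, 8495 and 7275 in the Snf5-/- arrays and fell by 0.45 ± 0.13. The groups did not overlap in either. The mean of all probe sets of Ctse changed by -0.24 (adjusted p = 0.573), which did not pass. Ctsb and Ctsd, also lysosomal proteases, had log2 changes of -0.17 ± 0.12 and -0.35 ± 0.12 and did not pass (adjusted p = 0.386 and 0.0645), although both were lower on the deposited scale (0.0304 and 0.00629). By adjusted p, the call was lost for Ctse without WT replicate 2 or 3 or Snf5-/- replicate 1 (up to 0.0542) and Ctsl when any 1 array but Snf5-/- replicate 2 was left out (up to 0.121).

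Integrins are paired alpha and beta chains that hold cells to the matrix. Of 12 measured, 5 fell and 1 rose. Itga6, the alpha chain of laminin receptors, measured 2688, 1714 and 1752 units in the WT arrays and 439, 479 and 647 in the Snf5-/- arrays and fell by 1.62 ± 0.12 (adjusted p = 1.15e-05). Itga3, also a laminin receptor chain, measured 1135, 612 and 564 units in the WT arrays and 184, 175 and 171 in the Snf5-/- arrays and fell by 1.75 ± 0.21. Itga5, the chain of the main fibronectin receptor, measured 4415, 3026 and 2685 units in the WT arrays and 1419, 1726 and 1074 in the Snf5-/- arrays and fell by 0.90 ± 0.21. All 3 pair with Itgb1, which measured 13653, 11128 and 10927 units in the WT arrays and 5408, 7246 and 6237 in the Snf5-/- arrays and fell by 0.60 ± 0.12. Itga7, another laminin receptor chain that is abundant in muscle, fell by 0.69 ± 0.22. Itgb5, which pairs with alpha V to bind vitronectin, went the other way at 4538, 4057 and 3237 units in the WT arrays and 7649, 6242 and 6361 in the Snf5-/- arrays, with every mutant array above every WT array, and rose by 1.15 ± 0.10 (adjusted p = 2.35e-05). Its partner Itgav had a log2 change of 0.02 ± 0.09 (adjusted p = 0.899). An adjusted p above 0.05 was reached by Itga7 when any 1 array but Snf5-/- replicate 2 was left out (up to 0.127).

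Tetraspanins are small membrane proteins that gather integrins and proteases into patches. Of 18 measured, 6 fell and none rose. Tspan17 measured 827, 579.6 and 615 units in the WT arrays and 221, 215 and 283 in the Snf5-/- arrays and fell by 1.20 ± 0.13 (adjusted p = 0.000105). Tspan14, which like Tspan17 and Tspan15 belongs to the group that escorts the protease ADAM10, measured 516, 381 and 405 units in the WT arrays and 151, 198 and 176 in the Snf5-/- arrays and fell by 1.03 ± 0.22. Tspan15 measured 198, 196 and 201 units in the WT arrays and 66.3, 73.5 and 128 in the Snf5-/- arrays and fell by 0.98 ± 0.29. In none of these did the genotypes overlap. Cd151, the tetraspanin best known as a partner of laminin-binding integrins, measured 4243, 2496 and 2299 units in the WT arrays and 1669.5, 1168 and 1211 in the Snf5-/- arrays and fell by 0.77 ± 0.15. Tspan4 and Tspan9 fell by 0.33 ± 0.11 and 0.41 ± 0.12. Cd9 and Cd81 did not pass, at 0.44 ± 0.18 and -0.02 ± 0.09 (adjusted p = 0.106 and 0.893). The adjusted p rose above 0.05 for Tspan15 when any 1 array but Snf5-/- replicate 3 was left out (up to 0.114), Tspan4 when any 1 of the 6 arrays was left out (up to 0.149) and Tspan9 without WT replicate 2 or 3 or Snf5-/- replicate 1 or 3 (up to 0.142).

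Cadherins join neighbouring cells through calcium-dependent contacts. Of 10 cadherins and protocadherins, 4 fell and 1 rose. Cdh2, the N-cadherin of fibroblasts, measured 3723, 2006 and 1956 units in the WT arrays and 1425, 1063 and 1242 in the Snf5-/- arrays and fell by 0.64 ± 0.13. Cdh6 measured 340.1, 319 and 342 units in the WT arrays and 146, 142 and 121 in the Snf5-/- arrays and fell by 1.03 ± 0.19. Cdh13, which is anchored by a lipid, fell by 1.13 ± 0.30 and the protocadherin Pcdh7 by 0.98 ± 0.17. Cdh3, the P-cadherin known from epithelia and placenta, measured 272, 175 and 153 units in the WT arrays and 599, 401 and 655 in the Snf5-/- arrays, above the WT range in each mutant array, and rose by 1.74 ± 0.22 (adjusted p = 0.000229). The 8 epithelial markers summed to 1362 to 2314 in WT and 958 to 1349 in Snf5-/-, with Epcam at or below background in all 6 arrays. The threshold was missed, by adjusted p, by Cdh13 when any 1 array but Snf5-/- replicate 3 was left out (up to 0.0681).

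Syndecans and glypicans carry heparan sulfate chains that bind growth factors at the cell surface. Of 8 measured, 3 fell and 2 rose. Gpc3, a glypican of embryonic tissues, measured 379.9, 203 and 218 units in the WT arrays and 699, 679.6 and 1351 in the Snf5-/- arrays and rose by 2.02 ± 0.29 (adjusted p = 0.000714). Gpc6 measured 1269, 1087 and 1066 units in the WT arrays and 382, 474 and 459 in the Snf5-/- arrays and fell by 1.05 ± 0.22. Sdc4, a syndecan of focal adhesions, measured 607, 878 and 779 units in the WT arrays and 1114, 1241 and 1516 in the Snf5-/- arrays and rose by 1.05 ± 0.21. Sdc3 measured 3788, 2702 and 2434 units in the WT arrays and 1139, 1517 and 1150.2 in the Snf5-/- arrays and fell by 0.87 ± 0.17, and Gpc1 fell by 0.72 ± 0.22. No array of one genotype reached the range of the other in these 5 genes. With the mean of all probe sets of a gene, the changes of Sdc4, Sdc3 and Gpc6 were 0.46 (adjusted p = 0.0875), -0.62 (adjusted p = 0.0965) and -0.66 (adjusted p = 0.0616), none of which passed. Enzymes that shape the chains divided too. The sulfotransferases Hs3st1, Hs2st1 and Chst12 fell by 1.00 ± 0.26, 0.45 ± 0.10 and 0.54 ± 0.17. The mean of all probe sets of Hs2st1 changed by -0.26 (adjusted p = 0.0937). Sulf2, which removes sulfate groups from finished chains outside the cell, measured 2747, 2206 and 2039 units in the WT arrays and 3378, 3220.4 and 5049.5 in the Snf5-/- arrays and rose by 1.07 ± 0.13. Hs6st2 rose by 0.90 ± 0.09, although 1 WT array overlapped the mutant range on the deposited scale. Over the 5 families of integrins, tetraspanins, caveolae, cadherins and proteoglycans, a grouping made after the values were seen, 24 of 59 genes fell (40.7%) and 4 rose. By adjusted p, the call was lost for Gpc1 when any 1 array but WT replicate 1 was left out (up to 0.133), Hs3st1 when any 1 array but Snf5-/- replicate 2 was left out (up to 0.0768) and Chst12 without WT replicate 1, 2 or 3 or Snf5-/- replicate 3 (up to 0.134).

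Families of the cytoskeleton were counted in the same way. The share of members that fell ran from 13.0% to 17.9% among actin nucleators, LIM and PDZ proteins, tubulins and spectrins with their relatives. Of 36 myosins, tropomyosins and troponins, 3 fell (8.33%, near the 7.46% of all genes) and none rose. In that family 4 were higher after quantile normalization only. None of 10 keratins was called on both scales, and 1 of 7 other intermediate filament genes fell. Differences among these families were not tested. Of 28 formins, Arp2/3 subunits and other actin nucleators, 5 fell and none rose, though 1 was higher after quantile normalization only. Pfn2, a profilin that feeds actin monomers to growing filaments, measured 5437, 3433 and 3367 units in the WT arrays and 1740.2, 1301 and 1844 in the Snf5-/- arrays and fell by 0.95 ± 0.11. The Arp2/3 subunits Arpc4 and Arpc5l fell by 0.66 ± 0.14 and 0.53 ± 0.10, and the formin Diaph1 by 0.48 ± 0.11. Enah, which protects filament ends from capping, fell by 0.93 ± 0.22. Of 29 LIM and PDZ proteins of the cytoskeleton, 4 fell and 1 rose, among them the focal adhesion protein Zyx at 10220.4, 8039 and 7504 units in the WT arrays and 4570.2, 4573 and 4729 in the Snf5-/- arrays, a fall of 0.50 ± 0.11. Lmcd1, a muscle LIM protein, measured 613, 392 and 479.6 units in the WT arrays and 86.1, 155 and 124 in the Snf5-/- arrays and fell by 1.76 ± 0.28, and the muscle marker Acta1 fell too. Of 28 tubulins, stathmins and microtubule proteins, 4 fell and 2 rose, and of 23 spectrins, ERM proteins and ankyrins 3 fell and 2 rose. None of 9 septins was called. Tuba4a, an alpha tubulin, measured 5159.8, 4149.8 and 3908 units in the WT arrays and 1061, 1059 and 967 in the Snf5-/- arrays and fell by 1.72 ± 0.13 (adjusted p = 1.07e-05), with the groups far apart. An adjusted p above 0.05 was reached by Enah without WT replicate 1 (up to 0.0517).

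In membrane traffic, 1 of 45 sorting nexins and endosome coat proteins fell and none rose. Of 36 SNARE proteins and synaptotagmins, which fuse vesicles with their target membrane, 5 fell and none rose. Vamp3, the SNARE of recycling endosomes that return integrins to the surface, measured 4481, 2987 and 2701 units in the WT arrays and 1415, 1259.6 and 1954 in the Snf5-/- arrays and fell by 0.77 ± 0.12. Vti1b, a SNARE of late endosomes, measured 5586, 3793 and 3704 units in the WT arrays and 2588, 2151 and 2365 in the Snf5-/- arrays and fell by 0.48 ± 0.10. Of 41 phospholipases C and D and phosphoinositide enzymes, which make and erase lipid signals in membranes, 6 fell and none rose. Inppl1, the lipid phosphatase Ship2, measured 1705, 1118 and 1102 units in the WT arrays and 497, 685 and 487 in the Snf5-/- arrays and fell by 0.89 ± 0.19, and Inpp5a, which acts on soluble inositol phosphates, fell by 0.72 ± 0.14. Of 54 metallothioneins and heat shock proteins, 7 fell and none rose. Mt1, a metallothionein that binds zinc and copper, measured 6864, 5101 and 4829.9 units in the WT arrays and 935, 1763 and 1973 in the Snf5-/- arrays and fell by 1.52 ± 0.27, and Hspb8, a small heat shock protein, fell by 0.74 ± 0.14. No mutant array reached the WT range in any gene named here. Members higher after quantile normalization only were 3 sorting nexins and coat proteins and 4 SNARE proteins and synaptotagmins. Among phosphoinositide enzymes there were 3, and among metallothioneins and heat shock proteins 4.

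Of 28 MAP kinases and their activating kinases, 4 fell and none rose, though 1 was higher after quantile normalization only. Besides Mapk13, Map2k3, an upstream kinase of p38, measured 4353, 3512 and 3439.9 units in the WT arrays and 1615, 1363 and 1763 in the Snf5-/- arrays and fell by 0.89 ± 0.10 (adjusted p = 9.16e-05). Mapk6, the atypical kinase Erk3, measured 4510.2, 3254 and 3280.2 units in the WT arrays and 1398, 1997 and 1473 in the Snf5-/- arrays and fell by 0.83 ± 0.19, and Map2k1, the Mek1 kinase, fell by 0.54 ± 0.13. Each stayed below the WT range in all mutant arrays. Of 20 amino acid transporters, 4 fell, all of the Slc6 family. Slc6a6, the taurine carrier, measured 2826, 2655 and 2042 units in the WT arrays and 1029.8, 953 and 1118 in the Snf5-/- arrays and fell by 0.92 ± 0.11, in the arrays in which Cdo1, which feeds the synthesis of taurine, rose. The mean of all its probe sets changed by -1.27 (adjusted p = 0.0635). Slc6a8, the creatine carrier, measured 2420.1, 1847 and 1657 units in the WT arrays and 689.7, 847 and 921 in the Snf5-/- arrays and fell by 0.93 ± 0.14. Serpinb2, a serine protease inhibitor also known as PAI-2, measured 463, 322 and 250 units in the WT arrays and 14.1, 27.2 and 27.7 in the Snf5-/- arrays, with all 3 mutant arrays at or below background, and was at least 6.27-fold lower. The call on Serpinb2 was lost without WT replicate 1 or 2 (adjusted p up to 0.0606).

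Of 217 genes in 15 families of transcription factors, 6 rose and 10 fell. That is 7.37%, against 10.6% of all genes, and the difference was not tested. After quantile normalization by itself, 25 of the 217 were higher and 10 lower, so the order of rises and falls depends on the scale. None of 19 Hox genes, 14 forkhead factors, 13 TALE and Irx homeobox factors or 7 T-box factors was called on both scales. Maff, a small Maf factor of the bZIP class, measured 1042, 871 and 747 units in the WT arrays and 220.2, 272 and 226 in the Snf5-/- arrays and fell by 1.58 ± 0.20 (adjusted p = 0.000261). Klf5 measured 1139.5, 738 and 689.5 units in the WT arrays and 397, 253 and 324 in the Snf5-/- arrays and fell by 1.09 ± 0.22, whereas its relative Klf9 measured 1230.2, 998 and 785 units in the WT arrays and 1455, 1231 and 1887 in the Snf5-/- arrays and rose by 0.92 ± 0.12. Msx2, a homeobox factor of limb and skull, fell by 1.04 ± 0.23. Pax3, a factor of muscle precursors and neural crest, measured 172, 148 and 149 units in the WT arrays and 374, 250 and 243 in the Snf5-/- arrays, with every mutant array higher, and rose by 1.11 ± 0.25, and Meox1, a somite factor, rose by 1.35 ± 0.23. The 11 histone deacetylases and sirtuins also had no call.

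A gene was taken to move against its family when it was called on both scales opposite to at least 3 called relatives, or opposite to the median of its relatives with at least 70% of them on the other side of 0 on both scales. There were 28 such genes in 21 families, 26 higher and 2 lower. This split depends on the rule of both scales, which left out 627 genes higher after quantile normalization only and 1 lower. After quantile normalization by itself, cyclases and spectrins with their relatives each had 4 members higher and 3 lower. Tyrosine phosphatases, tubulins with stathmins, and LIM and PDZ proteins each had 4 higher and 4 lower. The rule on called relatives does not require that most of a family moved the other way. For Gpr137b and Il1r1 the medians of the relatives were -0.02 and 0.0025, with 28.6% and 47.1% of them opposite in sign on both scales. For Lima1, Crabp1, Lrp6, Stmn1 and Epb41l2 the medians lay between -0.06 and -0.04, with 53.6% to 59.1% opposite. Only for Fas, Itgb5, Gpc3, Sdc4, Slc40a1 and Olfm1 were at least 70% of the relatives opposite. Over all genes, falls on both scales outnumbered rises, 627 to 265, while after quantile normalization by itself 892 were higher and 628 lower. The difference of each from its relatives was not tested.

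Of 26 carriers of zinc, iron, copper and phosphate, 6 fell, including the zinc importer Slc39a6 at 4635, 2759.5 and 2601 units in the WT arrays and 1147, 1200.4 and 1221 in the Snf5-/- arrays, a fall of 1.08 ± 0.12, and the mitochondrial iron carrier Slc25a37, a fall of 1.10 ± 0.20. Slc40a1, ferroportin, the iron exporter, measured 132, 167 and 125 units in the WT arrays and 377, 389 and 619.9 in the Snf5-/- arrays and rose by 1.92 ± 0.20 (adjusted p = 8.04e-05). Its groups were far apart, and the median of its relatives was -0.29. Cp, the ferroxidase that works beside ferroportin, fell, as given above.

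Receptors of growth factors and cytokines showed single rises among falls. Tek, the angiopoietin receptor, measured 46, 37.6 and 52.6 units in the WT arrays and 114, 74.1 and 122 in the Snf5-/- arrays and rose by 1.41 ± 0.33, with 1 WT array at or below background. Fitted with only the 6 arrays, the change of Tek had an adjusted p of 0.0668. Its family of receptor kinases and ligands had 5 falls in 31 genes, among them Flt4 at 1278, 952 and 857 units in the WT arrays and 221, 281 and 296 in the Snf5-/- arrays, Axl by 0.87 ± 0.19 and Kitl, the ligand of Kit, by 1.58 ± 0.36. Tek and Flt4 are both known from vessels. The 8 endothelial markers, Tek included, summed to 840 to 928 in WT and 572 to 802 in Snf5-/-. Only 3 of the 8 were tested, and Tek was the only one of these called. Tie1 was at most 6.3 units in the 6 arrays. Il1r1, the interleukin 1 receptor, measured 107, 103 and 205 units in the WT arrays and 258, 331 and 262 in the Snf5-/- arrays and rose by 1.34 ± 0.30, while its accessory chain Il1rap measured 409, 379 and 350 units in the WT arrays and 153, 173 and 176 in the Snf5-/- arrays and fell by 0.92 ± 0.16. Il4ra and Il13ra1, which together form an interleukin 13 receptor, fell by 1.58 ± 0.17 and 1.51 ± 0.38, Il13ra1 with 1 mutant array at or below background. Fas, the death receptor, measured 256, 174 and 112 units in the WT arrays and 506, 387 and 371 in the Snf5-/- arrays and rose by 1.55 ± 0.31, whereas the decoy receptors Tnfrsf22 and Tnfrsf23, near-copies of each other whose signals may mix, fell by 1.30 ± 0.26 and 1.57 ± 0.24. The adjusted p rose above 0.05 for Il13ra1 without WT replicate 2 or 3 (up to 0.0644).

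Rises among falls also occurred in enzymes and G proteins of signalling. Gng2, a gamma subunit of G proteins, measured 344, 248 and 275 units in the WT arrays and 497, 579 and 477 in the Snf5-/- arrays and rose by 1.12 ± 0.16, while Gng11, Gnai1 and Gnb4 fell by 1.36 ± 0.27, 1.25 ± 0.15 and 0.96 ± 0.13. Adcy7, an adenylyl cyclase, measured 237, 211 and 119 units in the WT arrays and 362, 379.9 and 247 in the Snf5-/- arrays and rose by 1.09 ± 0.30. Of 19 cyclases and cyclic nucleotide kinases, 3 fell, and Prkg2, the membrane-bound cGMP kinase, did so most, at 1322, 889 and 835 units in the WT arrays and 139.6, 119 and 118 in the Snf5-/- arrays and by 2.67 ± 0.18 (adjusted p = 4.97e-06). Ptprv, a receptor phosphatase that p53 can induce, measured 157, 142 and 184 units in the WT arrays and 408, 386 and 670.1 in the Snf5-/- arrays and rose by 1.82 ± 0.33, against 4 falls in 25 phosphatases. The largest of these was Ptprk, at 655, 512 and 472 units in the WT arrays and 103, 128 and 134 in the Snf5-/- arrays, a fall of 1.88 ± 0.17. Smpdl3b and Enpp3, phosphodiesterases of lipid and nucleotide substrates, rose by 1.68 ± 0.27 and 1.72 ± 0.30, while the sphingosine phosphate lyase Sgpl1 fell by 0.63 ± 0.14. Adcy7 lost its call without WT replicate 3 or Snf5-/- replicate 1 or 2 (adjusted p up to 0.103), and the mean of its probe sets changed by 0.67 (adjusted p = 0.0966).

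In the cytoskeleton, Lima1, which bundles and stabilizes actin filaments, measured 2229.6, 1659.8 and 1429 units in the WT arrays and 2407, 2431 and 3940.4 in the Snf5-/- arrays and rose by 1.04 ± 0.13 while 4 LIM or PDZ proteins fell. Stmn1, which takes microtubules apart, rose by 0.99 ± 0.20, but its groups overlapped on the deposited scale, at 1729, 2013 and 1546 (WT) against 3255, 1821 and 3559.9 units (Snf5-/-). Epb41l2, a protein 4.1 that ties spectrin to the membrane, measured 2094, 1469.6 and 1343 units in the WT arrays and 2901, 2187 and 3986 in the Snf5-/- arrays and rose by 1.21 ± 0.14, whereas its relative Epb41l3 measured 3895, 3316 and 3155 units in the WT arrays and 1519, 1272 and 1371 in the Snf5-/- arrays and fell by 0.96 ± 0.11. Crabp1 and the Wnt coreceptor Lrp6, which rose by 1.10 ± 0.18, stood against 5 falls in 30 lipid carriers, lipases and lipoprotein receptors, among them the fatty acid carriers Fabp3 and Fabp4 (1.05 ± 0.23 and 1.07 ± 0.27). In the lower direction, Olfm1 fell by 0.81 ± 0.24 among olfactomedin and angiopoietin-like proteins, its relatives having a median of 0.59, and Gpr137b, a lysosomal membrane protein, by 0.49 ± 0.11. Gpr137b stood against 3 called rises, while the median of its 35 relatives was -0.02. The mean of all probe sets of Olfm1 changed by -0.67 (adjusted p = 0.0974). The threshold was missed, by adjusted p, by Fabp4 without WT replicate 3 or Snf5-/- replicate 3 (up to 0.0614), Olfm1 when any 1 array but Snf5-/- replicate 2 was left out (up to 0.121) and Gpr137b without WT replicate 3 (up to 0.0616).

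**Figure D3:**
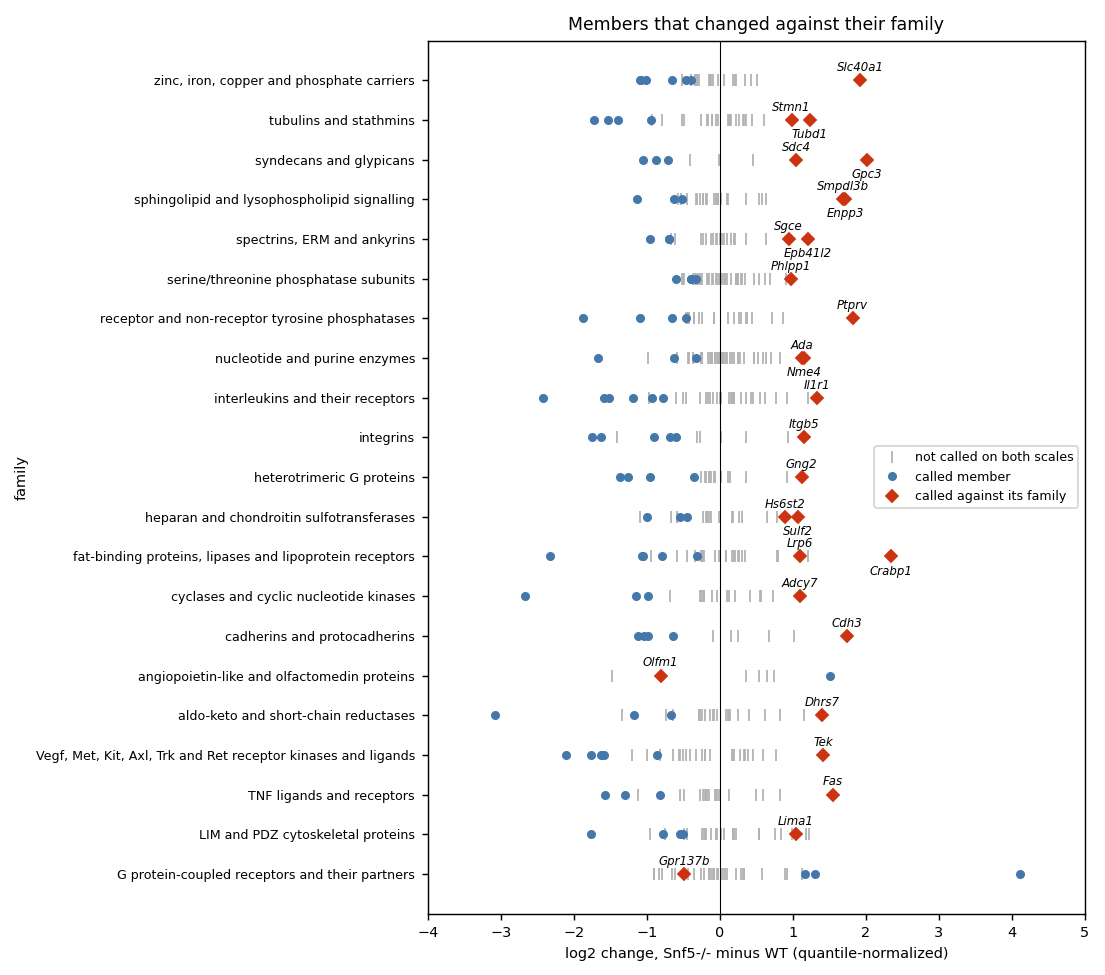
Log2 change (Snf5-/- minus WT, quantile-normalized) of every measured member of the 21 families with a gene called against its relatives: grey ticks are members not called on both scales, blue circles called members and red diamonds the 28 genes against their family. Slc40a1, Gpc3, Crabp1, Ptprv and Cdh3 lie farthest to the right of relatives that fell.

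Relatives that differ only by a number in their symbol allow a closer comparison. Of 77 pairs in which both genes were called on both scales, 57 moved together, 19 upward and 38 downward, and 20 moved apart. These counts include genes of the known lists. Most of the upward pairs, those of Gbp, Ifit, Ifitm, Irf, Matn, Fbln and Fndc genes, held such a gene. The pairs are also not independent, since a gene can enter several. Among the opposite pairs, Cdh3, Gng2, Gpc3, Tle6 and Igfbp7 each stood in more than 1. The 20 pairs were chosen for their opposite calls, so the gap between their members is a description.

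Bcl2l11 and Bcl2l1 act on opposite sides of cell death. Bcl2l11, the death-promoting protein Bim, measured 459, 524 and 474 units in the WT arrays and 1168, 894 and 1383 in the Snf5-/- arrays and rose by 1.48 ± 0.16 (adjusted p = 8.28e-05). Bcl2l1, the survival protein Bcl-xL that Bim binds, measured 2339, 1688 and 1464 units in the WT arrays and 824, 1029 and 1123 in the Snf5-/- arrays and fell by 0.54 ± 0.13. No array of one genotype entered the range of the other in either gene. The mean of all probe sets of Bcl2l1 changed by -0.99 (adjusted p = 0.0689).

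Adaptors and binding proteins of the insulin and IGF pathway parted as well. Irs2, an adaptor of the insulin receptor, measured 168, 88.5 and 50.5 units in the WT arrays and 310.4, 246 and 182 in the Snf5-/- arrays, with 1 WT array at or below background, and rose by 1.69 ± 0.35. Irs1, its relative, measured 2556, 1833 and 1775 units in the WT arrays and 1147, 973 and 1102 in the Snf5-/- arrays and fell by 0.60 ± 0.12. Igfbp3, which carries IGFs outside the cell, measured 384, 265 and 288 units in the WT arrays and 803, 974 and 1584 in the Snf5-/- arrays and rose by 2.06 ± 0.18 (adjusted p = 2.67e-05). Igfbp2 rose by 1.13 ± 0.17, with overlap on the deposited scale, at 4525, 2947 and 1976 (WT) against 4994, 5926 and 4439.6 units (Snf5-/-). Igfbp7, a relative that binds IGFs weakly, measured 21464, 19006 and 16569 units in the WT arrays and 8718, 14411 and 6972 in the Snf5-/- arrays and fell by 0.83 ± 0.23. By adjusted p, the call was lost for Igfbp7 when any 1 array but Snf5-/- replicate 2 was left out (up to 0.0868).

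Prkd3 and Prkd1 are protein kinases D, which diacylglycerol activates at the Golgi. Prkd3 measured 553, 565 and 414 units in the WT arrays and 838, 779 and 879 in the Snf5-/- arrays and rose by 0.99 ± 0.13, while Prkd1 measured 499, 302 and 301 units in the WT arrays and 128, 139.9 and 126 in the Snf5-/- arrays and fell by 1.17 ± 0.19. With the mean of all its probe sets Prkd3 changed by 0.35 (adjusted p = 0.207), which ends the opposite call. Among the Tle corepressors of Groucho type, Tle1 and the short form Tle5 fell by 0.73 ± 0.18 and 0.68 ± 0.10. Tle6 rose by 1.57 ± 0.36, from a dim level with overlap on the deposited scale, at 66.3, 50.2 and 89.7 (WT) against 229, 89.3 and 236 units (Snf5-/-). Tle5 and Tle6 lie 5.64 and 5.67 Mb from Smarcb1, where linkage to the engineered allele cannot be told apart from loss of Snf5. Fgf18, a secreted growth factor, measured 33.7, 54.3 and 54.4 units in the WT arrays and 209, 109 and 143 in the Snf5-/- arrays and rose by 1.93 ± 0.46, with 1 WT array at or below background, while Fgf13, a relative that stays inside the cell, measured 537, 318 and 264 units in the WT arrays and 106, 131 and 104 in the Snf5-/- arrays and fell by 1.37 ± 0.33. An adjusted p above 0.05 was reached by Tle1 without WT replicate 3 or Snf5-/- replicate 1 or 3 (up to 0.0719), Fgf13 without WT replicate 1 (up to 0.0686) and Fgf18 without Snf5-/- replicate 1 (up to 0.0652).

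**Figure D4:**
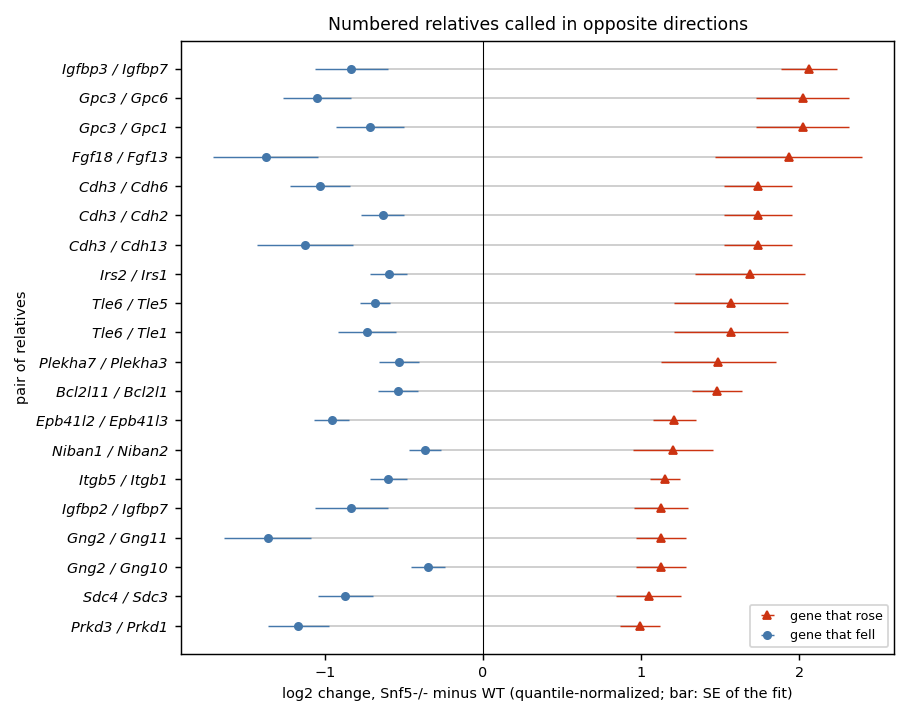
Log2 change (Snf5-/- minus WT, quantile-normalized) of the 20 pairs of numbered relatives called in opposite directions; triangles are the genes that rose, circles those that fell, and bars the SE of the fit. The widest gap is that of Fgf18 and Fgf13, and Niban1 and Niban2 are among the narrowest.

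Several probe sets of one gene check whether a call belongs to the gene or to a stretch of its transcript. Of 13370 probe sets fitted together, 3239 genes had more than 1, and 611 of these genes had at least 1 probe set called on both scales. In 162 all probe sets were called in the same direction. In 268 genes a probe set was called beside a brighter one that was not. Calls in opposite directions on both scales occurred in 2 genes. Plpp2, a lipid phosphate phosphatase, was read by a bright probe set at 3345, 2228 and 2499 units in the WT arrays and 939, 872 and 1041 in the Snf5-/- arrays and by a dim one at 33.5, 37.1 and 13.7 units in the WT arrays and 150.1, 114 and 70.9 in the Snf5-/- arrays. The bright one fell by 1.13 ± 0.10 and the dim one, with 1 WT array at or below background, rose by 2.33 ± 0.49 (adjusted p = 4.13e-05 and 0.00798 over all probe sets). Riok3, a kinase of ribosome assembly, had 2 bright probe sets that fell, by 0.85 ± 0.19 and 0.82 ± 0.14, and a dim one at 149, 60.9 and 55.1 units in the WT arrays and 336, 204 and 157 in the Snf5-/- arrays that rose by 1.75 ± 0.50. In the vacuolar ATPase family, Atp6v0a1 had 4 probe sets, and the one that stood for it measured 1637, 1068 and 1028 units in the WT arrays and 1259, 1215 and 1596 in the Snf5-/- arrays and a dimmer one 164, 158 and 316 units in the WT arrays and 31.4, 80.1 and 114 in the Snf5-/- arrays. The first rose by 0.46 ± 0.11 on the quantile-normalized scale only, and the second fell by 1.39 ± 0.44 on both.

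Genes near Smarcb1 on chromosome 10 were set apart because embryos on a mixed C57BL/6 and 129 background can carry a strain-specific segment along with the engineered allele. Within 10 Mb, 134 genes were measured, of which 8 rose and 11 fell (14.2%, against 10.6% of all genes). Within 1 Mb the counts were 1 and 3 of 18 (22.2%). The nearest call was Snrpd3, a core protein of spliceosomal particles 0.36 Mb away, at 2135, 1330.2 and 1676 units in the WT arrays and 585, 569 and 635 in the Snf5-/- arrays, which fell by 1.16 ± 0.14 (adjusted p = 0.000185). Col18a1, the collagen that releases endostatin, 1.13 Mb away, measured 407, 599.7 and 505 units in the WT arrays and 1969, 1798 and 2189 in the Snf5-/- arrays and rose by 2.25 ± 0.28 (adjusted p = 0.000228). Both were far from overlap. Icosl, a ligand for T cell costimulation 2.15 Mb away, measured 25.3, 26.4 and 30.7 units in the WT arrays and 81.5, 100.9 and 92.9 in the Snf5-/- arrays. It rose (adjusted p = 0.00799), but all 3 WT arrays lay at or below background, so the size of its rise is poorly fixed. Among the 15 largest rises, Egr2 lies 8.35 Mb from Smarcb1. Strain origin was not given for single genes, so linkage and loss of Snf5 cannot be told apart for these genes.

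**Figure D5:**
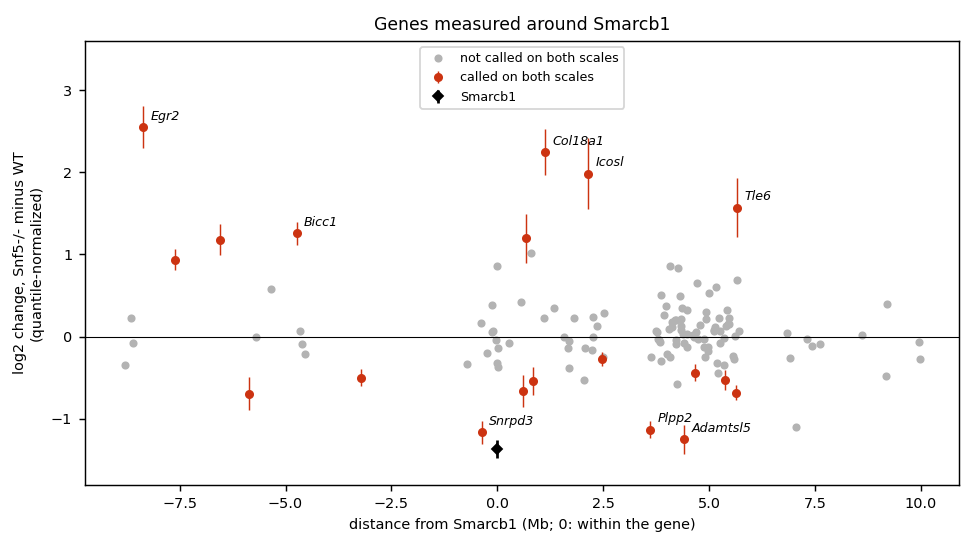
Log2 change (Snf5-/- minus WT, quantile-normalized) of the 134 genes measured within 10 Mb of Smarcb1, by distance in Mb; red points with SE bars are called on both scales, grey points are not, and the black diamond is Smarcb1. Calls of both directions are spread over the window, with Snrpd3 nearest to Smarcb1.

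Transcripts that depend on sex also differed between the groups. Xist, the RNA of the inactive X chromosome, measured 2575, 183 and 1550.3 units in the WT arrays and 3539, 3068 and 3476 in the Snf5-/- arrays. All mutant arrays were high and even, while WT replicate 2 was low and the other WT arrays in between. Eif2s3y, on the Y chromosome, measured 290.2, 255 and 189 units in the WT arrays and 79.2, 49.6 and 145 in the Snf5-/- arrays, so it was detected in WT and lower in every mutant array, a log2 change of -1.31 ± 0.43 that did not pass after quantile normalization (adjusted p = 0.0543). Xist rose by 2.21 ± 0.68 (adjusted p = 0.0401; 0.0645 with the mean of its probe sets), and lost its call without Snf5-/- replicate 1, 2 or 3 (adjusted p up to 0.0981). Kdm6a, an X-linked histone demethylase that escapes X inactivation, measured 256, 146 and 117 units in the WT arrays and 342, 326 and 423 in the Snf5-/- arrays and rose by 1.41 ± 0.20. Kdm5c, another such gene, had a log2 change of 0.77 ± 0.18 that passed after quantile normalization (adjusted p = 0.0118) and not on the deposited scale (0.106). Of 252 X-linked genes, 11 rose and 31 fell (16.7%, against 10.6% of all genes), and among the genes named above Gpc3, Srpx, Slc6a8, Hs6st2, Fgf13, Il13ra1, Atp6ap1 and Atp6ap2 are X-linked. The sex of the embryos is not in the labels used here, and for these genes the mix of sexes and the genotype cannot be told apart.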

How the data were processed

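The authors deposited 1 table of 22690 probe sets for 10 arrays. Per the submitters' processing notes, its values are MAS5 intensity on a linear scale, with a scaling target not given in the sources used here. Intensity was taken to log2 with no offset, as no value lay at or below 0, and also quantile-normalized with limma 3.58.1 in R 4.3.3. A single symbol was carried by 20380 probe sets in the supplied array annotation, 691 had several and 1555 had none or were not listed, besides 64 controls. Gene identifiers matched the reference for 20351, whose symbols were updated. A probe set was kept when 3 or more arrays had it at their 40th percentile or higher, and the one with the highest mean stood for its gene (8403 genes). Positions and promoter windows came from RefSeq on GRCm38.p6.

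Each gene was fitted with 1 mean for each of 3 groups (residual degrees of freedom: 7), then eBayes with a variance trend, two-sided, with Benjamini-Hochberg adjustment over all genes and a threshold of 0.05. Background was the highest of 27 bacterial control probe sets of an array (26.7 to 57.4 in the 6 arrays); for a gene at or below it in all arrays of a group, the fold is the brighter group's mean over background and is given as at least that. A neighbour of Smarcb1 lies within 10 Mb. The fit was tested on simulated data. The number of arrays limits the precision.

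Named genes are Smarcb1, the 15 largest rises and falls outside the known lists with separate groups, up to 6 called members of each described family, genes against their family with called relatives, opposite relatives, disagreeing probe sets, neighbours and sex-linked genes. Family members that did not pass, and the printed promoters, were picked after their values were seen. The members, families and lists were chosen with earlier results of these data known. Alternatives changed the scale, filter, arrays, variance trend, probe set rule, offset, floor and replicate block, and left out each array in turn.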

Additional observations from a re-analysis of the deposited data

How the results depend on the processing

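On the quantile-normalized scale 1520 genes changed, 892 higher and 628 lower. The deposited scale gave 1619, 265 and 1354, so the share of higher genes among those called was 16.4% there, 51.8% with arrays centred on their median (1320, 684 and 636) and 58.7% after quantile normalization, with the median log2 change over all genes at -0.27, -0.01 and 0.02. Counts stayed within 1.5 times under the other settings: 1387 changed without the filter, 1381 with the 60th percentile, 1277 with only the 6 arrays, 1391 without the trend, 1510 with the mean of all probe sets, 1548 with 32 units added and 1562 with values raised to background. Leaving out single arrays gave 917 to 1663 changed, 549 to 965 higher and 368 to 698 lower, lowest in each case without WT replicate 3 (917, 549 and 368), and drops of over 1.5 times also came for changed genes without WT replicate 2 (978) and for lower genes without WT replicate 1 or 2 (405 and 380). These fits were run on the quantile-normalized scale only. Deviations of same-numbered arrays from their group means correlated by 0.04, 0.05 and -0.03, and those of unlike-numbered arrays by -0.12 to 0.09. With 3 arrays in a group this cannot show whether same-numbered arrays shared a litter, day or batch. With the replicate block, 1557 genes changed, 907 higher and 650 lower, and 13 of the 268 called genes of the naming rule lost their call. Of these 268, 176 kept it without each of the 6 arrays in turn and 92 lost it at least once, while 41 lost it with only the 6 arrays fitted, 27 without the filter, 25 without the trend, 8 with arrays centred on their median, 1 with values raised to background and none with 32 units added. Besides Tek, the 41 with only the 6 arrays included Kcnk1, Cav1, Cavin2, Igfbp7, Selp, Nnmt, Tspan4, Tspan9, Tspan15, Chst12 and Xist. With the mean of all probe sets 26 lost the call and 2 reversed. These were Plpp2 and Riok3, to log2 changes of 0.60 and 0.026, since a dim probe set of each moved against the bright ones. Signal near background limits Kcnk1, Sgo1, Car8, Tmem40 and Serpinb2, whose log2 changes carry wide errors or are bounds.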
